A study of Mus musculus with 6 samples.

Results

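Prostaglandins are short-lived lipid signals that cells make from arachidonic acid and release to act on neighbouring cells. The cyclooxygenases encoded by Ptgs1 (constitutive in most cells) and Ptgs2 (induced by growth factors, strain and inflammation) form the common precursor, which the synthases Ptges and Ptgis turn into prostaglandin E and prostacyclin. The receptors are G-protein-coupled: Ptger1 to Ptger4 bind prostaglandin E, Ptgfr binds prostaglandin F and Ptgir binds prostacyclin. In bone, prostaglandin E made by osteoblast-lineage cells can raise both bone formation and resorption, mainly through the receptors that raise cyclic AMP, Ptger2 and Ptger4. The 10 genes described here, Ptgs1, Ptgs2, Ptges, Ptgis, Ptgfr, Ptger1, Ptger2, Ptger3, Ptger4 and Ptgir, were chosen by symbol out of 20071 genes counted, and each had 1 row. They were proposed with the difference between the genotypes in these data already known, so their levels and fold changes are given as a description.

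The RNA came from bone marrow mesenchymal stem cells (MSCs) of the femurs of 6-week-old mice on a C57BL/6J background, cultured for 7 days in osteogenic medium. The medium held dexamethasone at 100 nM, β-glycerophosphate at 5 mM and ascorbic acid at 50 μg/mL. Controls (labelled WT) were Pcif1 fl/fl littermates, and the knockout (labelled CKO) was Prrx1-Cre;Pcif1 fl/fl, with 3 libraries of each. Both groups carried the floxed alleles, in which loxP sites surround exons 5 to 7 of Pcif1, the methyltransferase gene for m6Am at the start of mRNAs, and the knockout alone carried Prrx1-Cre, which is active in limb mesenchyme. The design text speaks of biological duplicates where the labels give 3 libraries, and the number of mice behind a library is not given in the sources used here, so the spread between libraries may be partly technical.

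The libraries held 20258209 to 28227696 counts. Counts of Pcif1 overlapped between genotypes at 39.3 to 42.8 CPM in controls and 37.8 to 39.7 CPM in the knockout, and as counts per gene they do not show the deleted exons. CPM is the usual depth-normalised read count, here scaled by the TMM method. Pcif1 fl/fl replicate 3 stood apart: a chi-square comparison with its 2 fellow replicates gave 82.9 and 98.6 per gene, against 2.83 to 10.1 for the other pairs within a genotype, and 3.63% of its counts were mitochondrial against 1.40% to 1.57% elsewhere. Xist was at 232 to 443 CPM in controls and 0.722 to 1.79 CPM in the knockout, while the Y-linked gene Ddx3y was at 48.4 to 62.2 and 99.1 to 104 CPM, so the sex of the donor mice and the genotype cannot be told apart. Besides the stromal genes of the label, such as Col1a1 at 3485 to 6359 CPM over the 6 libraries, the cultures held abundant macrophage transcripts. The 8 macrophage markers summed to 27750 to 29870 CPM in controls and 27220 to 30690 CPM in the knockout, and the lowest adjusted p among the 8 was 0.0645, for Itgam. Endothelial markers summed to at most 37.3 CPM, lymphoid markers to at most 0.199 CPM, neutrophil markers to at most 1.44 CPM and mast cell markers, nearly all of it Kit, to at most 3.84 CPM. Of these, Kit fell and S100a8 rose, at log2 fold changes of -1.95 and 1.45. Of these lists, Cd3e, S100a9, Tpsb2 and Fcer1a have no row and were not analysed here. In such bulk cultures, fewer cells of a type and less RNA per cell cannot be told apart. Nor do the counts tell which cell type a transcript came from.

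In Prrx1-Cre;Pcif1 fl/fl cultures, the prostaglandin F receptor transcript Ptgfr was 5.91-fold lower and the prostaglandin E receptor transcript Ptger3 was 4.10-fold lower. The inducible cyclooxygenase transcript Ptgs2 was 4.47-fold higher. The other 7 genes moved by at most 0.72 on the log2 scale, and the constitutive cyclooxygenase Ptgs1 had the smallest difference, at -0.0074. All 10 passed the filter on low counts. Calls came from edgeR's quasi-likelihood fit over 13733 genes, with 2 thresholds: a 2-fold difference or more (1 on the log2 scale), and a p under 0.05 after Benjamini-Hochberg adjustment. Past both, 2 of the 10 were lower, against 2.5% of all genes tested, and 1 was higher, against 1.03%, which makes 3 of 10 against 3.53%. By the adjusted p alone the same 3 of the 10 were called, against 4.51% of all genes lower, 2.88% higher and 7.4% in either direction. Their median log2 fold change was 0.36, where that of all genes tested was 0.0017. Every knockout library lay below every control library for 2 of the 10 genes, as for 15.7% of all genes, and above for 4 of the 10, as for 15% of all genes, so that 6 of the 10 were separated, as were 30.8% of all genes. Nothing is read from these counts, because the members were named with this contrast known.

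**Figure D1:**
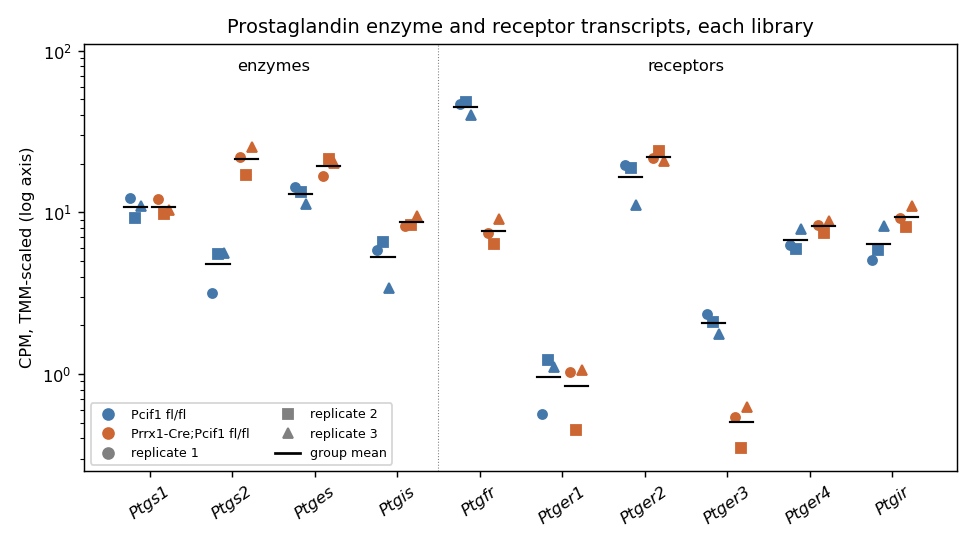
Level of each gene in each library, in TMM-scaled CPM on a log axis. Blue marks are the 3 Pcif1 fl/fl libraries, orange marks the 3 Prrx1-Cre;Pcif1 fl/fl libraries, shapes the replicates, and black bars the group means. Ptgfr at 40.2 to 48.2 CPM in controls and 6.37 to 9.05 CPM in the knockout, Ptger3 and Ptgs2 have the widest gaps between genotypes, while Ptgs1 and Ptger1 overlap.

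Because PCIF1 methylates an adenosine that directly follows the cap, the bases around the annotated start are shown for the 3 genes with the largest differences and for Ptgs1. Sequences are from RefSeq on GRCm38.p6, 5′ to 3′ on the gene's strand, with the first transcribed base in capitals and 15 bases before it. They lie at chr1:150100016-150100045 (plus strand, Ptgs2), chr3:151837514-151837543 (minus strand, Ptgfr), chr3:157566861-157566890 (plus strand, Ptger3) and chr2:36230411-36230440 (plus strand, Ptgs1).
Ptgs2: cctaagcggaaagacAgagtcaccactacg
Ptgfr: agacgaggaaggggcGgaggtcacccagcc
Ptger3: gggcggcgcctgtccAgtccccgcagccta
Ptgs1: ggcggtcagcctgtcAgaggtgacaactgg
The annotated start was A in Ptgs2, which was higher in the knockout, in Ptger3, which was lower, and in Ptgs1, whose groups overlapped, and it was G in Ptgfr, the gene with the largest drop. Of the 8 members with an entry, 3 began with A, 3 with G (Ptgfr, Ptger2 and Ptgir) and 2 with C (Ptges and Ptger4), where 34.4% of all 32851 annotated start windows began with A. Ptgis and Ptger1 had no entry. These are annotated starts, and the starts used in these cells were not measured. In the window from 250 bases before to 50 bases after the start, both strands were searched for the TATA box (TATAAA), the full and the short cyclic AMP response element, which share TGACG, the E box (CACGTG) and an NF-κB site. Only Ptgs2 among the 8 held any: TGACG on the minus strand from base 14, counting the start base as 1, overlapping CACGTG from base 17. Of all windows, 20.8% held TGACG and 7.15% CACGTG.

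Of the enzymes, Ptgs2 (chromosome 1, 150100031 to 150108227) had the largest difference. Control replicates 1 to 3 were at 3.19, 5.55 and 5.59 CPM, and knockout replicates 1 to 3 at 21.9, 17.02 and 25.2 CPM. The lowest knockout library was thus well above the highest control library. The means were 4.78 ± 1.38 CPM in controls and 21.4 ± 4.12 CPM in the knockout (SD, n = 3 each). On the log2 scale Ptgs2 rose by 2.15 ± 0.24 (SE), past both thresholds, and by 2.27 with Pcif1 fl/fl replicate 3 left out. These values rest on 73 to 156 counts in the control libraries and 342 to 524 in the knockout libraries, and no other annotated gene overlaps its exons.
Ptgs1 (chromosome 2, 36230426 to 36252272), the other cyclooxygenase gene, was at 12.3, 9.19 and 11.01 CPM in controls and 12.1, 9.76 and 10.4 CPM in the knockout. The groups overlapped, and the log2 difference of -0.0074 ± 0.16 (SE) was far smaller than the spread between replicates. Its sign turned with limma-voom and without each of 4 single libraries.
Within a library, the ratio of the 2 cyclooxygenase transcripts does not depend on how libraries are scaled to each other. In CPM per kilobase of exonic sequence, Ptgs2 over Ptgs1 was 0.220, 0.512 and 0.431 in controls and 1.53, 1.48 and 2.06 in the knockout. Ptgs1 was therefore the more abundant cyclooxygenase transcript in every control library and Ptgs2 in every knockout library.

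The terminal synthases showed smaller differences. Ptges (chromosome 2, 30889471 to 30929863), the inducible prostaglandin E synthase that works with Ptgs2, was at 14.4, 13.5 and 11.3 CPM in controls and 16.8, 21.5 and 20.2 CPM in the knockout. The groups did not overlap, yet the log2 difference of 0.58 ± 0.15 (SE) was past neither threshold, though its adjusted p fell under 0.05 with DESeq2, RLE scaling, no filter, or Pcif1 fl/fl replicate 3 left out.
Ptgis (chromosome 2, 167191805 to 167240604), the prostacyclin synthase, was at 5.85, 6.58 and 3.41 CPM in controls and 8.24, 8.36 and 9.43 CPM in the knockout. Here too the groups did not overlap, and the log2 difference of 0.72 ± 0.24 (SE) was past neither threshold. Control replicate 3 was the lowest library, and Ptgis stood at 0.48 when that library was left out.
The difference in Ptgs2 was much larger than that in Ptges, so that Ptgs2 over Ptges per kilobase was 0.190, 0.354 and 0.426 in controls and 1.12, 0.681 and 1.07 in the knockout. The balance of Ptges to Ptgis overlapped between genotypes, at 1.34 to 2.16 in controls and 1.33 to 1.68 in the knockout.

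Ptgfr (chromosome 3, 151796502 to 151837630) encodes the receptor that answers prostaglandin F with calcium release through Gq. Control replicates 1 to 3 were at 46.7, 48.2 and 40.2 CPM, and knockout replicates 1 to 3 at 7.43, 6.37 and 9.05 CPM. The groups lay far apart, with a spread of 9.51% of the mean in controls and 17.7% in the knockout. The means were 45.0 ± 4.28 CPM in controls and 7.61 ± 1.35 CPM in the knockout (SD, n = 3 each), and on the log2 scale the difference was -2.56 ± 0.15 (SE), past both thresholds. These values rest on 1069 to 1312 counts in control and 128 to 188 in knockout libraries, while the antisense gene Gm43618 covers 4.85% of its exons. The 3 genes whose log2 CPM followed Ptgfr most closely over the 6 libraries were Adamts15, Tonsl and Slc39a4, with Pearson's r of 0.999, 0.998 and 0.998. The 6 libraries fall into 2 groups by genotype, and 367 genes had an r above 0.95 with Ptgfr.
Ptger3 (chromosome 3, 157566892 to 157645888), the prostaglandin E receptor that lowers cyclic AMP through Gi, was at 2.36, 2.10 and 1.76 CPM in controls and 0.540, 0.348 and 0.625 CPM in the knockout. All 3 knockout libraries were below all 3 controls. The means were 2.07 ± 0.302 CPM in controls and 0.505 ± 0.142 CPM in the knockout (SD, n = 3 each), and on the log2 scale the difference was -2.02 ± 0.31 (SE), past both thresholds. The depth is a limit here, since the knockout libraries held 12, 7 and 13 counts of Ptger3, against 49 to 57 in controls.

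The receptors that raise cyclic AMP through Gs had higher means in the knockout, none past a threshold. Ptger2 (chromosome 14, 44988195 to 45003820) was at 19.7, 18.7 and 11.2 CPM in controls and 21.6, 24.0 and 20.7 CPM in the knockout. The groups did not overlap, with control replicate 3 far below its fellows, and the log2 difference of 0.42 ± 0.21 (SE) was past neither threshold and shrank to 0.21 without that library.
Ptger4 (chromosome 15, 5206661 to 5244187) was at 6.25, 5.95 and 7.89 CPM in controls and 8.33, 7.47 and 8.80 CPM in the knockout. The groups overlapped, with a log2 difference of 0.29 ± 0.16 (SE), and antisense genes, mostly the pseudogene Gm15937, cover 16.5% of its exons.
Ptgir (chromosome 7, 16906490 to 16910905), the prostacyclin receptor, was at 5.07, 5.84 and 8.21 CPM in controls and 9.18, 8.06 and 10.9 CPM in the knockout. Control replicate 3 exceeded knockout replicate 2, and the log2 difference of 0.56 ± 0.21 (SE) was past neither threshold.
Control replicate 3 was the highest control for Ptgir and Ptger4 and the lowest for Ptger2, Ptgis and Ptges, so leaving it out moved these genes in different directions. Without it, Ptges, Ptgis and Ptgir were higher at an adjusted p under 0.05, at log2 fold changes of 0.49, 0.48 and 0.78, and the number of members higher at any fold went from 1 to 4, while among all genes the number higher went from 396 to 1544.
Ptger1 (chromosome 8, 83666678 to 83672753), the prostaglandin E receptor linked to calcium, was at 0.568, 1.21 and 1.11 CPM in controls and 1.04, 0.448 and 1.06 CPM in the knockout. The groups overlapped on 9 to 33 counts a library. The use of strand in counting is not given in the sources used here, so the level of Ptger1 is uncertain.

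**Figure D2:**
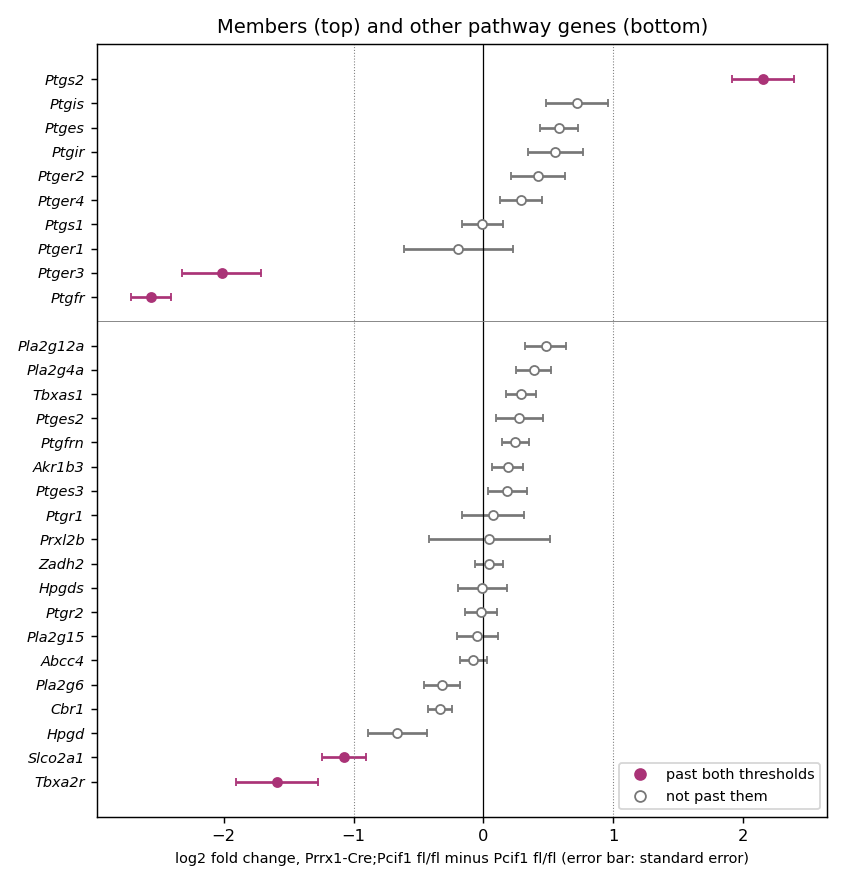
Log2 fold change of the 10 members (top) and of 19 other prostaglandin pathway genes tested (bottom), as Prrx1-Cre;Pcif1 fl/fl minus Pcif1 fl/fl with its standard error, from edgeR's fit over all genes. Filled points passed both thresholds: Ptgs2 to the right at 2.15, and Ptger3, Ptgfr, Slco2a1 and Tbxa2r to the left, from -2.56 to -1.07.

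Levels of different genes were compared per kilobase of exonic sequence. In controls Ptgfr was the most abundant of the 10 transcripts, at 6.64 ± 0.632 CPM per kilobase (SD, n = 3), and no control library of another member reached its range. Ptges (3.31), Ptger2 (3.18), Ptgs1 (2.79), Ptgis (2.06) and Ptgir (1.91 CPM per kilobase) followed, each overlapping the next. Ptgs2 and Ptger4, which overlapped at 1.04 and 1.007 CPM per kilobase, Ptger3 at 0.364 and Ptger1 at 0.177 closed the order. In the knockout the order was led by Ptges at 4.95, Ptgs2 at 4.67 and Ptger2 at 4.26 CPM per kilobase, which overlapped. Ptgfr had moved from rank 1 to rank 8, at 1.12 ± 0.199 CPM per kilobase (SD, n = 3), and Ptgs2 from rank 7 to rank 2. With the longest annotated transcript as the length, Ptgfr kept these ranks and Ptgs2 went from rank 8 to rank 3.

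The 6 receptor transcripts together summed to 13.65, 13.96 and 12.23 CPM per kilobase in controls and 9.54, 9.25 and 10.2 in the knockout. Ptgfr made up 50.5%, 51.0% and 48.4% of that sum in control replicates 1 to 3 and 11.5%, 10.2% and 13.0% in knockout replicates 1 to 3. The receptors that raise cyclic AMP (Ptger2, Ptger4 and Ptgir) made up 45.7%, 44.8% and 47.4% in controls and 85.5%, 88.3% and 84.0% in the knockout. Ptger2 alone took 17.6% to 27.7% of the sum in controls and 39.0% to 50.0% in the knockout. Ptger3, the receptor that lowers cyclic AMP, made up 2.53% to 3.04% and 0.663% to 1.08%. These shares are of transcripts, not of receptors on the cell surface, and a share rises when another member of the sum falls. With the longest transcript as the length, the mean share of Ptgfr was 43.1% in controls and 9.18% in the knockout, and that of Ptger2, Ptger4 and Ptgir together 51.95% and 88.3%. Which of these shares was larger in controls thus turned with the length used, from means of 49.96% for Ptgfr and 45.97% for the other 3 with the union of exons. Without Ptger1 in the sum the share of Ptgfr was 50.6% and 11.8%.

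**Figure D3:**
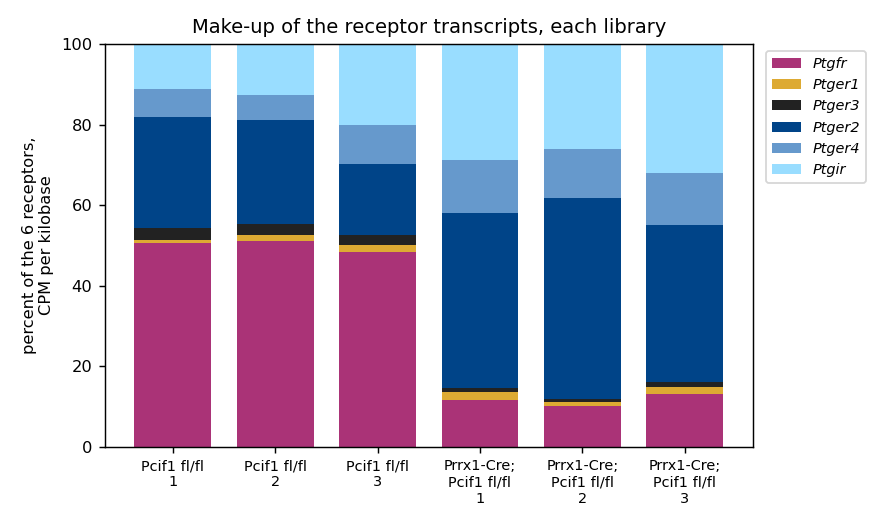
Share of each of the 6 receptor transcripts in their sum, in percent of CPM per kilobase, for each of the 6 libraries. Ptgfr takes 48.4% to 51.0% of each Pcif1 fl/fl bar and 10.2% to 13.0% of each Prrx1-Cre;Pcif1 fl/fl bar, where Ptger2, Ptger4 and Ptgir take 84.0% to 88.3%.

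The rest of the pathway was read from a list of 24 genes, of which 22 had a row and 19 were tested. Of the 19, 2 fell past both thresholds, 0 rose and 17 did not pass, against 2.5% lower and 1.03% higher among all genes. At an unadjusted p under 0.05, 5 of the 19 were lower and 4 higher, against 11.8% and 9.56% of all genes tested, and DESeq2 called 2 lower and 0 higher past both thresholds. The median log2 fold change of the list was 0.044.
Tbxa2r, the thromboxane receptor gene, was at 6.07, 4.70 and 2.76 CPM in controls and 1.71, 1.49 and 1.25 CPM in the knockout. All knockout libraries were below all controls. The change was -1.59 ± 0.32 (SE) on the log2 scale, with an adjusted p of 0.0195 in the edgeR fit. That call was lost with limma-voom and without Pcif1 fl/fl replicate 1 or 2 or any 1 knockout replicate, and over 13 alternatives the adjusted p lay between 3.72e-05 and 0.0954.
Slco2a1, which encodes the transporter that takes prostaglandins into cells for breakdown, was at 32.2, 25.4 and 40.1 CPM in controls and 14.6, 16.3 and 15.5 CPM in the knockout. Controls varied more than knockouts but did not reach them. The change was -1.07 ± 0.17 (SE) on the log2 scale, with an adjusted p of 0.00681 in the edgeR fit, and without Pcif1 fl/fl replicate 3 the change was -0.89, under the fold threshold, at an adjusted p of 2.81e-05.
The breakdown enzyme gene Hpgd was at 91.7, 104 and 162 CPM in controls and 86.9, 59.0 and 80.1 CPM in the knockout, a log2 fold change of -0.66 (adjusted p = 0.129 from the edgeR test) that was past the adjusted p with DESeq2 (adjusted p = 0.0490) and, at -0.38, without Pcif1 fl/fl replicate 3 (adjusted p = 0.0353). Of the 6 genes for transport and breakdown, Slco2a1 was the 1 that passed. Among the 4 phospholipase genes tested the lowest adjusted p was 0.115, for Pla2g12a. Without Pcif1 fl/fl replicate 3, Pla2g12a and Pla2g4a were higher by the adjusted p, at log2 fold changes of 0.38 and 0.48. Pla2g4a, the main enzyme that releases arachidonic acid for the cyclooxygenases, was at 57.5, 73.6 and 78.0 CPM in controls and 94.4, 80.9 and 98.0 CPM in the knockout (log2 fold change 0.39, adjusted p = 0.139 from the same test). The lowest adjusted p among the other synthase genes was 0.0712, for Cbr1, which was lower by it without Pcif1 fl/fl replicate 3, at -0.36. Log2 fold changes of the 7 other synthase genes tested ran from -0.34 to 0.29. Among them were Hpgds and Tbxas1, the prostaglandin D and thromboxane synthases that macrophages also express, at means of 165 and 75.7 CPM in controls and 165 and 92.4 CPM in the knockout. Ptgfrn, which encodes a membrane partner of the prostaglandin F receptor, was at 63.9 to 79.7 CPM in controls and 83.4 to 89.1 CPM in the knockout (log2 fold change 0.24, adjusted p = 0.224), so that no knockout library was below a control library.

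Genes known to act upstream of Ptgs2 and Ptges gave 1 rise and 1 fall past both thresholds among 9 tested, against 1.03% higher and 2.5% lower among all genes. Egr1, the early-response transcription factor known to act on the Ptges promoter, was at 15.5, 16.9 and 34.9 CPM in controls and 106, 66.3 and 116 CPM in the knockout. The groups did not overlap, and Egr1 rose by 2.10 ± 0.33 (SE) on the log2 scale, with an adjusted p of 0.00705 in the edgeR fit. The interleukin-1 receptor gene Il1r1 was at 38.7, 35.7 and 45.6 CPM in controls and 21.1, 17.6 and 18.0 CPM in the knockout. The change was -1.08 ± 0.13 (SE), with an adjusted p of 0.00193, and -0.97 with Pcif1 fl/fl replicate 3 left out. Nfkb1, Rela, Cebpb and Cebpd did not pass, with log2 fold changes from -0.21 to 0.19. Tnf was at 2.32 to 3.51 CPM in controls and 3.33 to 4.91 CPM in the knockout (adjusted p = 0.174 from the edgeR test). Without passing, Nfkbia was higher in every knockout library than in any control, at 0.28, and Tnfrsf1a and Rela were lower, at -0.092 and -0.21. Without Pcif1 fl/fl replicate 3, Tnf and Cebpb were also higher by the adjusted p, at 0.86 and 0.27. That made 3 of the list higher and 1 lower, against 1544 and 1447 of all genes. Il1b, also on the list, had no row.
Dexamethasone, a component of the medium, is known to repress Ptgs2. Of 8 glucocorticoid-induced genes, Sgk1 rose by the adjusted p alone, with means of 174 ± 2.88 and 274 ± 16.7 CPM (SD, n = 3 each). Its log2 fold change was 0.66 (adjusted p = 0.00268 from the edgeR test). The other 7 did not pass, among them Tsc22d3 and Fkbp5 at log2 fold changes of -0.049 and 0.20. Without Pcif1 fl/fl replicate 3, Dusp1 was also higher by the adjusted p, at 0.44. Tsc22d3, Zbtb16 and Errfi1 were then lower by it, at -0.20, -0.23 and -0.23. Of 8 tested genes that cyclic AMP induces, Fos rose by the adjusted p alone, from 12.4 to 15.4 CPM in controls to 20.01 to 28.6 CPM in the knockout (0.81 ± 0.16 on the log2 scale, SE, adjusted p = 0.0191), and 7 did not pass. Without Pcif1 fl/fl replicate 1 or 2, or knockout replicate 1 or 3, Fos did not pass, with adjusted p values between 0.000270 and 0.0996 over the alternatives. The 7 that did not pass lay on both sides of 0: Nr4a1, Nr4a2, Nr4a3, Crem and Pde4b had log2 fold changes of 0.28, 0.31, 1.00, 0.30 and 0.089, and Pde4d and Sik1 of -0.26 and -0.29. Of the 8 genes for the G alpha subunits through which the receptors signal, Gnai1, an inhibitory subunit of the kind that Ptger3 uses, was past both thresholds, with means of 24.99 ± 1.42 and 8.74 ± 0.965 CPM (SD, n = 3 each), a difference of -1.52 ± 0.13 (SE) on the log2 scale and an adjusted p of 0.000322. The other 7 did not pass, with Gnas, Gnaq and Gna11 at 0.20, 0.078 and -0.055, and Gnai2, at 661 CPM in controls, at -0.0074.
By the adjusted p alone, the counts were 1 higher of 8 for the glucocorticoid-induced genes and 1 higher of 8 for the cyclic AMP-induced genes, against 2.88% higher among all genes. Past both thresholds, 1 of the 8 G alpha genes was lower, against 2.5% of all genes. The median log2 fold changes of these lists, beside 0.0017 for all genes tested, were -0.028 for the upstream genes, -0.10 for the glucocorticoid-induced genes, 0.29 for the cyclic AMP-induced genes and 0.035 for the G alpha genes.

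Several cell-type markers moved along with Ptgfr, Ptger3 and Ptgs2. The calls here are by the adjusted p alone, by which 4.51% of all genes were lower and 2.88% higher. Of the 10 mesenchymal stromal markers, 4 fell at an adjusted p under 0.05: Lepr, Cxcl12, Eng and Pdgfra, at log2 fold changes of -2.72, -2.44, -1.11 and -0.42. The 3 that rose were Thy1, Col1a2 and Col1a1, at 1.52, 0.64 and 0.61. The list summed to 10450 to 13240 CPM in controls and 13230 to 14070 CPM in the knockout. Of the 6 adipocyte markers, 3 fell (Adipoq, Plin1 and Pparg) and 3 did not pass. Of those, Fabp4 was higher in every knockout library than in any control (log2 fold change 0.46, adjusted p = 0.0545), and Lpl and Cebpa were at 0.23 and -0.19. The list summed to 760 to 800 CPM and 662 to 863 CPM, with Adipoq at 42.9 to 53.8 CPM in controls and 0.289 to 1.49 CPM in the knockout, and Plin1 at 0 in every knockout library. Ptger3 is known to be expressed in adipocytes. Of the 7 smooth muscle and pericyte markers, Rgs5 and Mcam fell, at log2 fold changes of -1.99 and -1.05, and the list summed to 504 to 669 CPM in controls and 539 to 565 CPM in the knockout. Of the 7 osteoblast markers tested, Sp7, Alpl and Ibsp fell, and the list, most of it Spp1, summed to 10090 to 17230 CPM and 12060 to 20290 CPM. The part of these cell types in the changes of Ptgfr, Ptger3 and Ptgs2 was not tested. The macrophage sums, most of them Lyz2, overlapped between genotypes. Below Lyz2, Cd14, Itgam and Adgre1 were higher in every knockout library than in any control, at log2 fold changes of 0.67, 0.45 and 0.24, and Csf1r was lower in every one, at -0.26, none of them past the adjusted p.

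**Figure D4:**
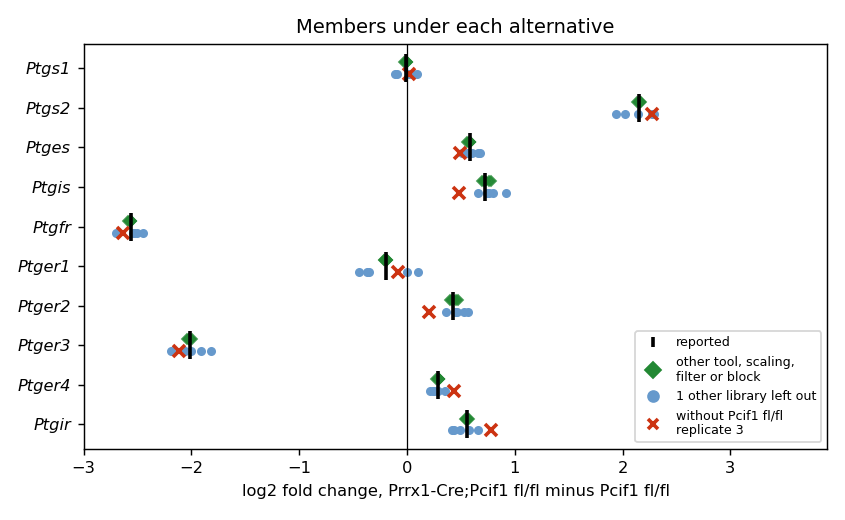
Log2 fold change of each of the 10 genes as reported (black bars) and under the alternatives: other tools, scalings, filters and the replicate block (green), 1 library left out (blue) and Pcif1 fl/fl replicate 3 left out (red crosses). Ptgfr stays between -2.70 and -2.45, Ptger3 between -2.19 and -1.82 and Ptgs2 between 1.94 and 2.29, while Ptgs1 and Ptger1 fall on both sides of 0.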

How the data were processed

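Libraries of poly(A) RNA from 6 MSC samples were sequenced by the authors, who mapped clean reads to mm10 with HISAT2. The authors deposited raw counts of reads per gene, without normalization; the counting tool, annotation and use of strand are not given in the sources used here. Of 20163 rows, 92 repeated an Ensembl ID with the same counts, so 20071 IDs were used. Groups followed the sample titles.

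The fit used edgeR 4.0.16 under R 4.3.3, with the filterByExpr filter, TMM scaling, glmQLFit and glmQLFTest without covariates, over 13733 genes. Standard errors were the log2 fold change over the square root of F. Coordinates, exon lengths and overlaps came from GENCODE M21 (GRCm38), where 20059 IDs were found, and start windows from RefSeq on GRCm38.p6. Levels between genes are CPM per kilobase of the union of exons. Intervals of counting error are not given, and standard errors cover the spread between libraries. An exact two-sided permutation test of 3 libraries against 3 cannot go below 0.1, so none is given.

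Named genes were all members, every gene past a threshold on the lists for the other pathway genes, upstream genes, glucocorticoid-induced, cyclic AMP-induced and G alpha genes, and the 3 genes most alike in pattern to the member that changed most. Further genes named with values were chosen after their values were seen. The members and lists were written by hand, with earlier results of these data known. Alternatives were DESeq2 1.42.0, limma-voom (limma 3.58.1), RLE or total-count scaling, no filter, a mean of at least 10 counts, the replicate number as a block, another length, and each library left out. The shares of receptors with another length or without Ptger1 were added after seeing the data. In a test on simulated data with 200 of 12844 genes changed by 2 on the log2 scale, edgeR called 200 in the right direction with 1 false call. The simulation gave every gene the same dispersion, left out genes with low mean counts and had no outlying library. It therefore does not show how calls fare with a library such as Pcif1 fl/fl replicate 3. Some items are not reported here.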

Additional observations from a re-analysis of the deposited data

How the results depend on the processing

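Of 221 values for 17 named genes under 13 alternatives, 196 kept their direction and their side of the threshold, 12 lost the call, 6 gained one and 7 changed sign. The threshold was both rules for genes past both, and the adjusted p alone for the rest. The 6 gains were Ptges in 4 alternatives and Ptgis and Ptgir without Pcif1 fl/fl replicate 3. The calls of Ptgs2, Ptgfr and Ptger3 held in every alternative: leaving out 1 library in turn gave 2 members lower and 1 higher each time past both thresholds. The sign changes were in Ptgs1 and Ptger1, neither past a threshold. Ptgs1 was at 0.0035 with limma-voom and from -0.11 to 0.094 with 1 library left out, and Ptger1 from -0.44 to 0.11. At any fold, 2 members were higher with DESeq2, with RLE scaling and with no filter, since Ptges joined Ptgs2, and 1 to 4 with 1 library left out. Of the other pathway genes, 1 was lower with limma-voom under both rules, where Tbxa2r had an adjusted p of 0.0504. With 1 library left out, 1 was lower past both thresholds, and at any fold 1 to 4 were lower and 0 to 2 higher. The upstream genes gave 0 to 1 lower past both thresholds and 1 to 3 higher at any fold, the glucocorticoid-induced genes 0 to 3 lower and 1 to 2 higher at any fold, the cyclic AMP-induced genes 0 to 1 higher, and the G alpha genes 1 to 2 lower. Over all genes, 253 to 385 were lower and 89 to 229 higher past both thresholds, and 324 to 1447 lower and 148 to 1544 higher at any fold, with the highest counts without Pcif1 fl/fl replicate 3. The cause was not tested. Replicate numbers did not pair the libraries: deviations from the group means correlated at 0.055, -0.045 and -0.013 for numbers 1 to 3. With the replicate number as a block, 2 members were lower and 1 higher, with Ptgs2 at 2.17, Ptgfr at -2.57 and Ptger3 at -2.03. Over all genes 326 were lower and 126 higher, and none of the 17 genes followed here changed its call. Scaling moved the median log2 fold change of all genes to -0.021 at most. Depth limits Ptger1 and Ptger3 the most, at 7 to 57 counts a library.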
